A study of Homo sapiens with 6 samples.

Results

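The major histocompatibility region of chromosome 6 was followed through peak lists of 2 histone marks, H3K4me3 and H3K27me3, in the human lung cancer line H1299. Its members are all intervals of the 4 lists that overlap the stretch from base 29600001 to 34 Mb of chromosome 6 on hg19, chosen by position alone. They number 1494 of 275570 intervals in all. The H3K4me3 lists held 292 members after metformin and 277 in control cells, and the H3K27me3 lists held 461 after metformin and 464 in control cells. The treated cells received 5 mM metformin, a biguanide drug for diabetes, and the control cells received none. Both conditions come from this line, an established line of non-small cell lung cancer, and each mark and condition is 1 library. Differences between conditions therefore carry no replicate error and were not tested. The length of treatment is not stated in the labels, and the 2 libraries of input chromatin were not analysed here.

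The region carries the genes of antigen presentation. Class I genes encode the molecules that show peptides made inside a cell to cytotoxic T cells. Class II genes such as HLA-DRA and HLA-DPB1 encode the molecules that show ingested peptides to helper T cells, and are normally active in antigen-presenting cells. The class II stretch also holds TAP1, TAP2, PSMB8 and PSMB9, which cut and transport peptides for class I in many cell types. Class III lies between them and holds complement genes, TNF and lymphotoxins, heat shock genes and many genes that most cells use. The centromeric flank beyond class II holds, among others, TAPBP, a chaperone of class I loading, and the chromatin regulators RING1 and DAXX. H3K4me3, trimethylated lysine 4 of histone H3, marks mainly active promoters. H3K27me3, trimethylated lysine 27, is set by Polycomb complexes over silent genes.

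The region was divided by position: class I starts at base 29600001, class III at base 31400001, class II at base 32200001 and the centromeric flank at base 33100001, and the flank ends at 34 Mb. Gene names and order came from a table on GRCh38.p14, whereas the lists use hg19, so intervals are given by position and no interval was assigned to a gene. There, 47 protein-coding genes stand between HLA-F and MICB, landmarks taken for class I. Between MICB and HLA-DRA, taken for class III, there are 61, and between HLA-DRA and HLA-DPB1, within class II, there are 16. These counts follow gene order and not the limits by position, so they do not count the genes of each class as divided here. No sequence is printed, because the hg19 genome was not used here. At the limits of the region, the first H3K4me3 member after metformin, chr6:29596032-29603423, crossed the limit, and the interval before it was chr6:29595456-29595785 (4.003, the authors' own value for an interval, read here as a −log10 q). The last was chr6:33757819-33758002 (3.59), and the next beyond was chr6:34109031-34109280 (1.84). In control the last was chr6:33808705-33808953 (1.59), and the next chr6:34110195-34110401 (2.10). For H3K27me3 the first members were chr6:29609196-29612006 after metformin (1.56) and chr6:29607069-29607583 in control (1.999), and the nearest before them chr6:29555515-29555825 after metformin (1.82) and chr6:29559824-29560420 in control (1.52). H3K27me3 ran on past 34 Mb, with intervals beyond at chr6:34000011-34000307 after metformin (1.22) and chr6:34001869-34003633 in control (2.15).

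Both marks were dense in the region. H3K4me3 intervals covered 445 kb of it after metformin and 411 kb in control cells, which is 10.1% of its 4.4 Mb after metformin and 9.33% in control. Over the rest of chromosome 6, between the first and the last interval of any list, the covered share was 2.04% after metformin and 1.92% in control. H3K27me3 covered 884 kb after metformin and 745 kb in control, or 20.1% of the region after metformin and 16.9% in control. Over the rest of chromosome 6 it covered 2.82% after metformin and 2.67% in control. Windows of the same length were tiled along every chromosome, and those with at least 100 kb of a mark in the control list were ranked by covered length. For H3K4me3 the region was 4th of 145 windows after metformin and 3rd in control. For H3K27me3 it was 5th of 262 after metformin and 7th in control. The region thus ranked near the top for a mark of active promoters and for a mark of silent chromatin at once.

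The classes differed in which mark they held, and the order was the same in both conditions. Class III was the stretch of H3K4me3: 181 kb per Mb after metformin and 172 kb per Mb in control, with 37.1 kb per Mb of H3K27me3 after metformin and 30.6 in control. Class II was the reverse, with 41.5 kb per Mb of H3K4me3 after metformin and 40.2 in control, beside 262 kb per Mb of H3K27me3 after metformin and 232 in control. Class I and the flank held both marks in quantity. Class I held 88.7 kb per Mb of H3K4me3 after metformin and 81.1 in control, with 242 kb per Mb of H3K27me3 after metformin and 207 in control. The flank held 114 kb per Mb of H3K4me3 after metformin and 101 in control, with 202 kb per Mb of H3K27me3 after metformin and 155 in control. The rest of chromosome 6 held far less of either mark, with 20.4 kb per Mb of H3K4me3 after metformin and 19.2 in control, and 28.2 kb per Mb of H3K27me3 after metformin and 26.7 in control.

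**Figure D1:**
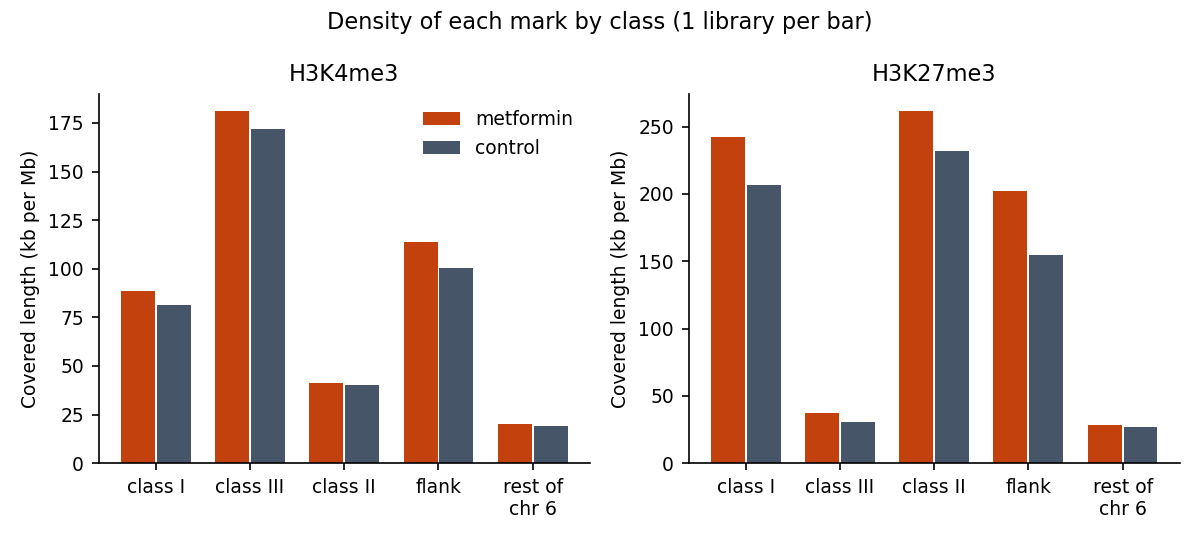
Covered length in kb per Mb of H3K4me3 (left) and H3K27me3 (right) in class I, class III, class II, the centromeric flank and the rest of chromosome 6, with metformin left of control. Each bar is 1 library, without replicate error. Class III stands highest for H3K4me3, at 181 kb per Mb after metformin and 172 in control, and lowest of the classes for H3K27me3, at 37.1 after metformin and 30.6 in control.

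Set against each other, H3K27me3 covered 6.30 times as much sequence as H3K4me3 in class II after metformin and 5.77 times in control. In class III it covered 0.205 times as much after metformin and 0.178 times in control. The flank, at 1.77 after metformin and 1.54 in control, lay near the rest of the genome, at 1.69 after metformin and 1.73 in control. The marks' lists have unlike lower limits of value, 1.31 for H3K4me3 and 1.00 or 1.01 for H3K27me3. Comparisons of covered length between the marks, here and in bins, therefore set unlike rules side by side. Class III takes up 0.8 Mb of the 4.4 Mb and held 32.6% of the region's H3K4me3 length after metformin and 33.6% in control, with 3.36% of its H3K27me3 length after metformin and 3.29% in control. Class I held 49.4% of the region's H3K27me3 length after metformin and 49.99% in control.

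Along the region the marks took turns. In 44 bins of 100 kb, H3K4me3 covered more than H3K27me3 in both conditions in 19 bins, H3K27me3 covered more in both in 22, and 3 bins differed between conditions. Across the bins the covered lengths of the marks ran against each other, with a Spearman rho of -0.56 after metformin and -0.59 in control (44 bins of 1 library per mark, neighbouring bins not independent, given as a description). Neither this rho nor the split of bins was computed over the genome, so whether they are particular to the region was not tested. The longest run of bins with more H3K4me3 reached from 31.5 to 32.3 Mb, through class III into the start of class II. It held 139 kb of H3K4me3 after metformin and 131 kb in control, beside 10.6 kb of H3K27me3 after metformin and 8.69 kb in control. A second run from 30.5 to 30.9 Mb in class I held 66.8 kb of H3K4me3 after metformin and 66.3 kb in control, with 3.27 kb of H3K27me3 after metformin and 2.47 kb in control. The longest run with more H3K27me3, from 32.3 to 32.8 Mb in class II, held 122 kb of that mark after metformin and 113 kb in control, with 5.11 kb of H3K4me3 after metformin and 4.14 kb in control.

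**Figure D2:**
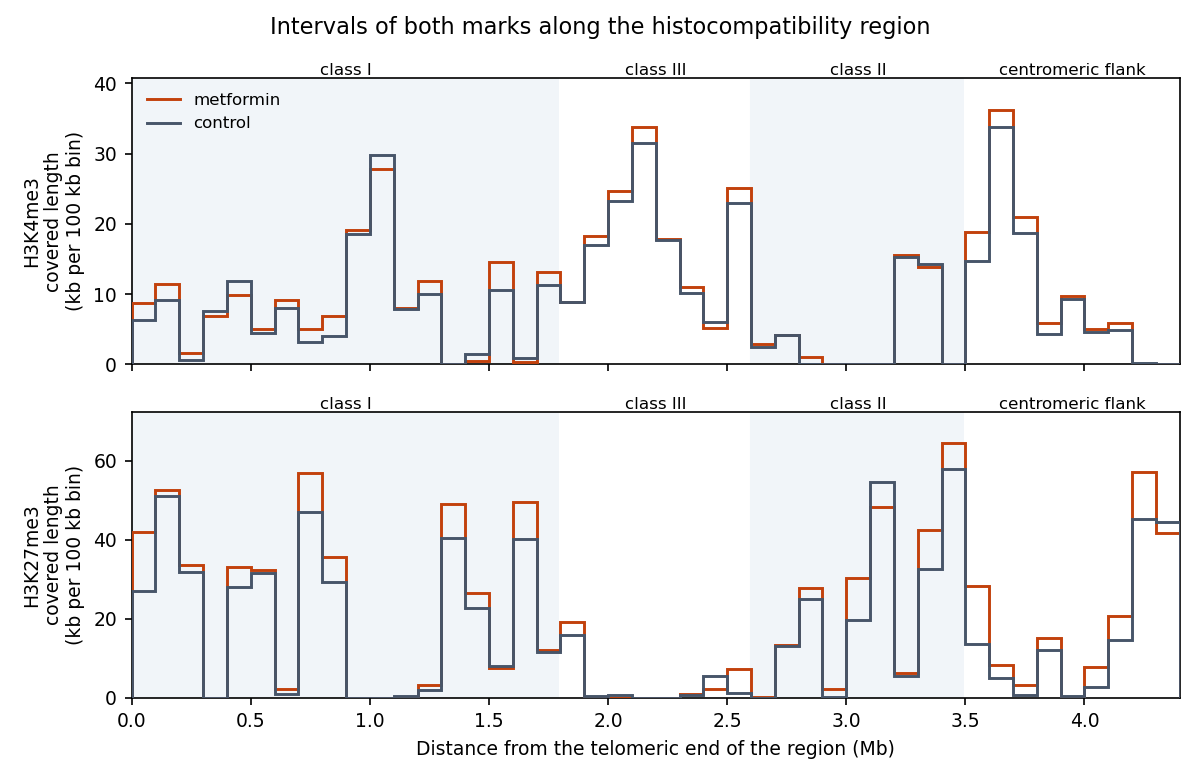
Covered length per 100 kb bin of H3K4me3 (top) and H3K27me3 (bottom) in kb, against the distance from the telomeric end of the region in Mb, with shaded bands for the classes. Lines are the metformin and the control library. The highest H3K4me3 bin of class III, with 33.8 kb after metformin and 31.5 kb in control, holds no H3K27me3, while its last bin holds 7.22 kb of H3K27me3 after metformin and 1.13 kb in control, and the marks alternate through class I.

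The 3 bins in which the larger mark differed lay at class borders and in the flank. In the first bin of the flank, H3K27me3 covered 28.3 kb after metformin and 13.6 kb in control, beside 18.8 kb of H3K4me3 after metformin and 14.7 kb in control. From 33.6 to 33.7 Mb, H3K27me3 covered 7.87 kb after metformin and 2.74 kb in control, beside 5.03 kb of H3K4me3 after metformin and 4.62 kb in control. In the last bin of class I the values lay close together, with 13.1 kb of H3K4me3 and 12.1 kb of H3K27me3 after metformin, and 11.3 kb of H3K4me3 and 11.5 kb of H3K27me3 in control.

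Long stretches held 1 mark without the other in either condition. The longest without H3K4me3 was chr6:32428308-32803181 in class II, 375 kb long, with 93.8 kb of H3K27me3 in 67 intervals after metformin and 88.6 kb in 47 intervals in control. Next came chr6:30883412-31082242 in class I (199 kb long), with 75.1 kb of H3K27me3 after metformin and 61.6 kb in control. The end of the flank, chr6:33808954-34000000, held 98.8 kb of H3K27me3 after metformin and 89.8 kb in control without H3K4me3. In each of these 3 stretches H3K27me3 covered more after metformin. The longest stretch without H3K27me3 was chr6:30493687-30798127 in class I, 304 kb long, with 54.9 kb of H3K4me3 in 29 intervals after metformin and 56.3 kb in 33 intervals in control. The next, chr6:31689689-31902285 in class III (213 kb), held 55.2 kb of H3K4me3 after metformin and 52.3 kb in control.

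Some stretches held neither mark in either condition, and the 3 longest are given here. The longest, chr6:32453318-32581379 in class II, was 128 kb long. The others were chr6:32226436-32336354 (110 kb), also in class II, and chr6:29946135-30026597 in class I (80.5 kb). The lists hold no input or mappability values, so whether reads could be placed there was not tested.

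Values within each list placed many of these intervals high. Ranks are by that value and within 1 list. Among H3K4me3 members, 25.3% after metformin and 26.7% in control ranked in the top 10% of their list, and in class III 33.3% after metformin and 36.1% in control. The rest of chromosome 6 was high too, with 19.1% after metformin and 17.9% in control. The best H3K4me3 ranks were 12th of 53454 after metformin, at chr6:30875975-30878256 in class I (−log10 q 129), and 63rd of 50585 in control, at chr6:30647025-30660109 in class I (92.1). The class I interval of rank 12 had a control partner of 3294 bp at 80.6. Among H3K27me3 members, 105 of 461 after metformin (22.8%) and 88 of 464 in control (19.0%) ranked in the top 10%. Over the rest of chromosome 6 this share was 8.96% after metformin and 9.20% in control. In class III this held for 0 of 25 after metformin, which allows a share of up to 12.0%, and for 3 of 23 in control. No H3K27me3 member reached a value of 5 in either list, and the highest were 3.70 after metformin and 2.94 in control. Such values were rare for this mark, with 11 of 85952 intervals of the whole metformin list and 16 of 85579 of the whole control list.

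H3K4me3 covered slightly more of the region after metformin. The length was 1.08 times that in control, against 1.06 over the rest of chromosome 6 and 1.12 over the rest of the genome. By class the ratio was 1.09 in class I, 1.05 in class III, 1.03 in class II and 1.13 in the flank. Among the 145 tiled windows the region ranked 108th by this ratio, and the middle of the windows lay between 1.08 (lower quartile) and 1.19 (upper quartile). Length-weighted mean values were 46.6 after metformin and 41.2 in control in the region, and 30.1 after metformin and 25.3 in control over the rest of the genome. Over the rest of chromosome 6 they were 40.0 after metformin and 33.0 in control. Read depth can move the length of such lists, and it was unknown for these libraries.

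H3K27me3 covered 1.19 times as much of the region after metformin, against 1.06 over the rest of chromosome 6 and 1.09 over the rest of the genome. The number of intervals was nearly equal (461 after metformin and 464 in control), and their mean width was 1917 bp after metformin and 1606 bp in control. The ratio of covered length was 1.17 in class I, 1.21 in class III, 1.13 in class II and 1.31 in the flank. Class III held only 29.7 kb after metformin and 24.5 kb in control. Of this, its last bin of 100 kb held 7.22 kb after metformin and 1.13 kb in control, so the class III ratio rests on that bin. Among the 262 tiled windows the region ranked 45th, with quartiles of 1.01 and 1.15. Length-weighted mean values were 1.88 after metformin and 1.81 in control in the region, and 1.68 after metformin and 1.67 in control over the rest of the genome. Where 1 metformin interval matched 1 control interval, it was wider after metformin in 84 of 138 pairs (60.9%), with a median width ratio of 1.24. By class it was wider after metformin in 40 of 58 pairs in class I, 20 of 39 in class II and 22 of 33 in the flank. In class III it was wider after metformin in 2 of 8, with a median ratio of 0.778. Over the rest of the genome this was so for 53.4% of pairs, with a median of 1.08. Among H3K4me3 pairs it was wider after metformin in 80 of 122 (65.6%), with a median ratio of 1.10, against 60.5% and 1.06 over the rest of the genome.

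In 100 kb bins, a bin was called when the covered length differed by 1.5-fold or more and at least 2 kb was covered in 1 list. For H3K4me3, 2 of 33 bins of the region were larger after metformin, against 10.3% of all 8432 bins, and 0 were smaller, against 1.41%. They were neighbours in class I. From 30.3 to 30.4 Mb H3K4me3 covered 5.01 kb after metformin and 3.24 kb in control (1.55-fold), and from 30.4 to 30.5 Mb it covered 6.83 kb after metformin and 4.08 kb in control (1.67-fold). Neither was called at 2-fold or with the fold divided by the genome-wide ratio, and 0 bins of 200 kb were called. In the same bins the H3K27me3 ratios were 1.21 each, short of the rule. H3K4me3 was larger after metformin by any amount in 26 of the 33 bins, against 5827 of all 8432 bins, and in 7 of 7 bins of the flank.

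For H3K27me3, 10 of 33 bins were larger after metformin, against 24.7% of all 7068 bins, and 1 was smaller, against 13.3%. Of the 10, 4 lay in the flank. There the covered length was 28.3 kb after metformin and 13.6 kb in control in the first bin, and 8.23 kb after metformin and 5.07 kb in control from 33.2 to 33.3 Mb. From 33.3 to 33.4 Mb it was 3.23 kb after metformin and 0.756 kb in control, and from 33.6 to 33.7 Mb 7.87 kb after metformin and 2.74 kb in control. The first bin of the flank adjoins the end of class II, where the mark covered the most sequence of any bin of the region. Class II had 2 such bins, at 32.5 to 32.6 Mb (2.15 kb after metformin and 0.201 kb in control) and at 32.6 to 32.7 Mb (30.3 kb after metformin and 19.8 kb in control). In class I they were the first bin (42073 bp after metformin and 27004 bp in control), 30.2 to 30.3 Mb (2.29 kb after metformin and 0.851 kb in control) and 30.8 to 30.9 Mb (3.27 kb after metformin and 1.90 kb in control). Class III had 1, its last bin, with 7.22 kb after metformin and 1.13 kb in control, and beside it the bin that was smaller, 32.0 to 32.1 Mb with 2.12 kb after metformin and 5.53 kb in control. Most of these bins held little of the mark, and the large folds of 10.7 and 6.38 rest on under 2 kb in control. The bins that held the most H3K27me3 differed less, such as the last bin of class II with 64.4 kb after metformin and 57.9 kb in control (1.11-fold).

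**Figure D3:**
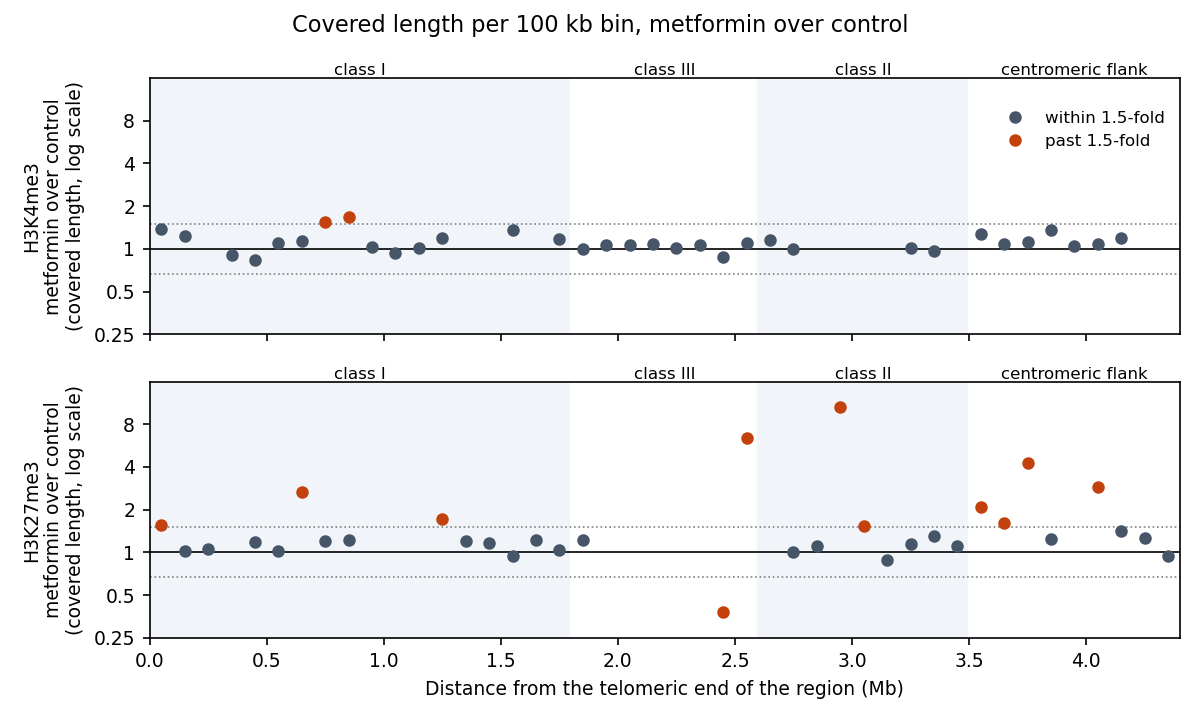
Ratio of covered length, metformin over control, per 100 kb bin on a log scale for H3K4me3 (top) and H3K27me3 (bottom), against the distance from the telomeric end of the region in Mb. Each point is a bin with at least 2 kb covered in 1 list, and dotted lines mark 1.5-fold either way. H3K4me3 ratios stay between 0.832 and 1.67, and H3K27me3 ratios spread from 0.383 to 10.7, with 10 bins above and 1 below the dotted lines.

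H3K4me3 sites of the region were mostly held in common. Of the metformin intervals 207 of 292 overlapped a control interval (70.9%, exact 95% binomial interval 65.3 to 76.0), beside 67.3% of the whole metformin list. Of the control intervals 225 of 277 overlapped a metformin interval (81.2%, 76.1 to 85.7), beside 77.3% of the whole control list. The shares are thus near those of the whole lists. Split by width they were nearer still: under 1 kb, 84 of 168 metformin members and 106 of 158 control members (67.1%) were shared, against 51.6% after metformin and 67.1% in control over the rest of the genome. From 1 to 4 kb, 90 of 91 metformin and 93 of 93 control members had a partner, and at 4 kb or more all 33 metformin and all 26 control members did. Over the rest of the genome the shares were 99.2% after metformin and 99.8% in control from 1 to 4 kb. At 4 kb or more all 1562 metformin and all 1210 control intervals there had a partner.

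The H3K4me3 intervals found in 1 list only were 85 after metformin (29.1%, beside 32.7% of the whole list) and 52 in control (18.8%, beside 22.7%). Their median widths were 281 bp after metformin and 239.5 bp in control, and 30 of the 85 metformin and 33 of the 52 control intervals lay within 500 bp of an interval of the other list. Median distances of these 1-list intervals to the other list were 628 bp after metformin and 330.5 bp in control. Over the rest of the genome they were 678 bp after metformin and 552 bp in control. The highest-valued after metformin were chr6:31334357-31335052 (−log10 q 13.1, 518 bp from the nearest control interval) and chr6:31105057-31105899 (11.4, 384 bp), both in class I. In control the highest was chr6:30031359-30031848 in class I (9.17, 270 bp from the nearest metformin interval). The single longest was chr6:31517758-31518784 in class III, 1027 bp after metformin, 104 bp from a control interval. Some lay farther away, such as chr6:32427327-32428307 in class II, 981 bp after metformin at a value of 2.28, whose nearest control interval was 72158 bp away.

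For H3K27me3 the shares of the region stood above those of the whole lists. Of the metformin intervals 313 of 461 had a control partner (67.9%, 63.4 to 72.1), beside 46.3% of the whole list, and 347 of 464 control intervals had a metformin partner (74.8%, 70.6 to 78.7), beside 48.3%. The difference was also seen among short intervals. Under 1 kb, 45.1% of metformin members (38.1 to 52.2) and 62.3% of control members (56.1 to 68.2) were shared, against 31.9% after metformin and 35.3% in control over the rest of the genome. The local density of the mark was higher too, with 201 kb per Mb after metformin and 169 in control, against 31.39 after metformin and 28.8 in control over the rest of the genome, and its part in these shares was not tested. Class III, with little of the mark, had the lowest shares, 11 of 25 after metformin (44.0%, 24.4 to 65.1) and 11 of 23 in control (47.8%, 26.8 to 69.4). The shared sequence made up 57.5% of the members' length after metformin and 68.2% in control, against 39.4% after metformin and 42.9% in control over the rest of the genome.

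**Figure D4:**
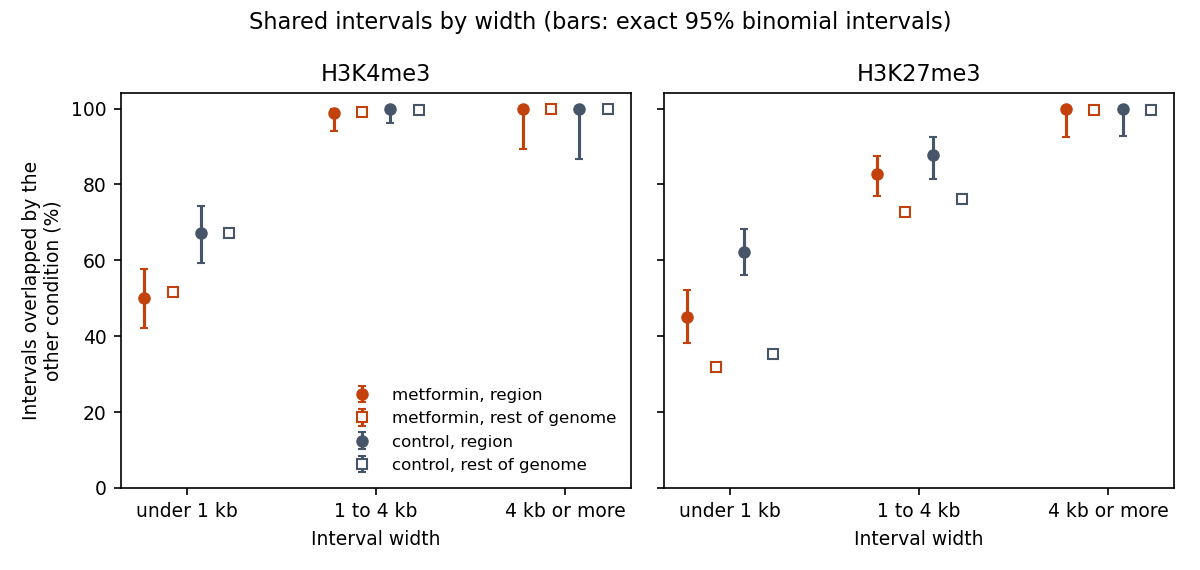
Percent of intervals overlapped by the other condition's list, by interval width, for H3K4me3 (left) and H3K27me3 (right). Filled circles are the region and open squares the rest of the genome, and bars are exact 95% binomial intervals that cover counting error only. For H3K4me3 the circles lie near the squares, and for H3K27me3 under 4 kb they lie above them, at 45.1% against 31.9% for short metformin intervals and 62.3% against 35.3% for short control intervals.

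H3K27me3 intervals of 1 list numbered 148 after metformin (32.1%, beside 53.7% of the whole list) and 117 in control (25.2%, beside 51.7%). Their median widths were 588 bp after metformin and 503 bp in control, and their median distances to the other list were 1083 bp after metformin and 860 bp in control. Over the rest of the genome these distances were 1721 bp after metformin and 1591.5 bp in control. The highest-valued were chr6:29876974-29877922 in class I after metformin (2.97) and chr6:29654212-29654416 in class I in control (2.72). In class II the metformin list had chr6:32625554-32625994 (2.83), which lay 2457 bp from the nearest control interval. In class I the control list had chr6:30798128-30798666 (2.50), whose nearest metformin interval was 25848 bp away.

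Broad H3K4me3 domains, intervals of 4 kb or more, were frequent in the region. They numbered 33 of 292 after metformin (11.3%, 7.91 to 15.5) and 26 of 277 in control (9.39%, 6.22 to 13.5), beside 2.98% of the whole metformin list and 2.44% of the whole control list. They made up 42.2% of the members' H3K4me3 length after metformin and 37.4% in control, against 14.5% after metformin and 12.4% in control over the rest of the genome. The rest of chromosome 6 lay between, with 4.96% of intervals after metformin and 4.10% in control. There they made up 22.5% of the length after metformin and 19.4% in control. Class III had 12 after metformin and 10 in control, class I had 8 after metformin and 7 in control, and class II had 4 in each. The flank had 9 after metformin and 5 in control. None of the 33 metformin domains (a count that allows up to 9.09%) and none of the 26 control domains (up to 11.5%) was overlapped by H3K27me3 of its condition. Over the rest of the genome this was so for 36 of 1562 after metformin (2.30%) and 12 of 1210 in control (0.992%), so the 0 counts of the region allow more than those shares.

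Joined across conditions, the broad domains formed 35 loci. Of these 23 were broad in both lists, 9 after metformin only and 3 in control only. Loci were not joined over the genome, so this split has no background share. The whole metformin list also held more intervals of 4 kb or more, 1595 against 1236 in the control list. Some loci broad in 1 list lay close to the limit, such as one in class III with 4169 bp after metformin and 3653 bp in control. All 35 had H3K4me3 in both lists, as did every interval of 4 kb or more over the rest of the genome. The covered length was larger after metformin at 20 loci and smaller at 15, with a median ratio of 1.01 and a range from 0.724 to 1.39, so the loci did not share a direction. In the flank it was larger at 8 of 10 loci with a median of 1.08, and in class II at 1 of 4 with a median of 0.922.

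The longest domain of the region lay in class I, chr6:30647013-30659948 after metformin (12.9 kb, −log10 q 75.1, 40 rows in the list) and chr6:30647025-30660109 in control (13.1 kb, 92.1, 36 rows). At the telomeric edge chr6:29596032-29603423 was 7392 bp after metformin, while the control list held an interval of 4624 bp and, just outside the region's limit, one of 1297 bp. At chr6:29714880-29721231 the domain was 6352 bp after metformin and 5586 bp in control. At chr6:31365346-31372826 it was 7481 bp after metformin and 7896 bp in control, and at chr6:30521527-30526761 it was 5235 bp after metformin and 6130 bp in control. In class I, 2 loci were broad after metformin only. At chr6:30708056-30713542 the metformin list had 5487 bp and the control list a longest interval of 2557 bp among 2 that covered 5002 bp, and at chr6:30536729-30541752 the longest were 5024 bp after metformin and 3489 bp in control. The locus chr6:29932263-29936414 was broad in control only, with 3076 bp after metformin and 4152 bp in control. At the second of these 3 the covered length was 5320 bp after metformin and 5335 bp in control, closer than the longest intervals.

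Class III had 12 loci, with ratios of covered length from 0.863 to 1.14. At chr6:31459957-31467574 the width was 7618 bp after metformin and 7604 bp in control, and at chr6:31785180-31791566 it was 6387 bp after metformin and 6474 bp in control. At chr6:31505991-31511317 it was 5327 bp after metformin and 5483 bp in control, and at chr6:31936767-31942725 it was 5959 bp after metformin and 5472 bp in control. The longest class III domain after metformin was chr6:31699312-31707383, 8072 bp long, with 6685 bp in control. The longest in control, chr6:31624777-31633264 (8488 bp), was divided into 4358 and 4364 bp after metformin, while the covered length at the locus was 8722 bp after metformin and 8670 bp in control. The highest H3K4me3 values of class III lay in narrower intervals. After metformin it was 93.2 at chr6:31547217-31550829 (3613 bp), where the control list had 2 intervals of at most 1606 bp with values up to 34.7. In control it was 86.8 at chr6:31588561-31592139 (3579 bp), where the metformin list had 2 of at most 2373 bp with values up to 73.4.

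The 4 class II domains lay between 32.8 and 33.0 Mb. They were chr6:32818528-32823600 (5073 bp after metformin, 4479 bp in control), chr6:32860994-32865239 (4246 bp after metformin, 5703 bp in control), chr6:32933590-32938626 (5037 bp after metformin, 5539 bp in control) and chr6:32940012-32945777 (5766 bp after metformin, 5217 bp in control). The last had the highest H3K4me3 value of class II in both lists, 72.2 after metformin and 87.0 in control. The bin from 32.8 to 32.9 Mb held 15.5 kb of H3K4me3 after metformin and 15.3 kb in control, and the next held 13.8 kb after metformin and 14.2 kb in control. The whole class held 37.3 kb after metformin and 36.2 kb in control, so most of its H3K4me3 lay in these bins.

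In the flank, 5 loci were broad after metformin only, 4 in both and 1 in control only, again without a split over the genome. The longest was chr6:33237584-33246137, 8554 bp after metformin at a value of 96.4, with 6179 bp at 54.1 in control. At chr6:33378484-33385877 the metformin list had 1 interval of 7394 bp where the control list had 5 of at most 2620 bp, and the covered length was 7394 bp after metformin and 5337 bp in control. At chr6:33254731-33259393 it was the other way round, with 4663 bp after metformin and 6443 bp in control. The domain broad in control only, chr6:33359571-33364070 (4500 bp), was 3999 bp after metformin.

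**Figure D5:**
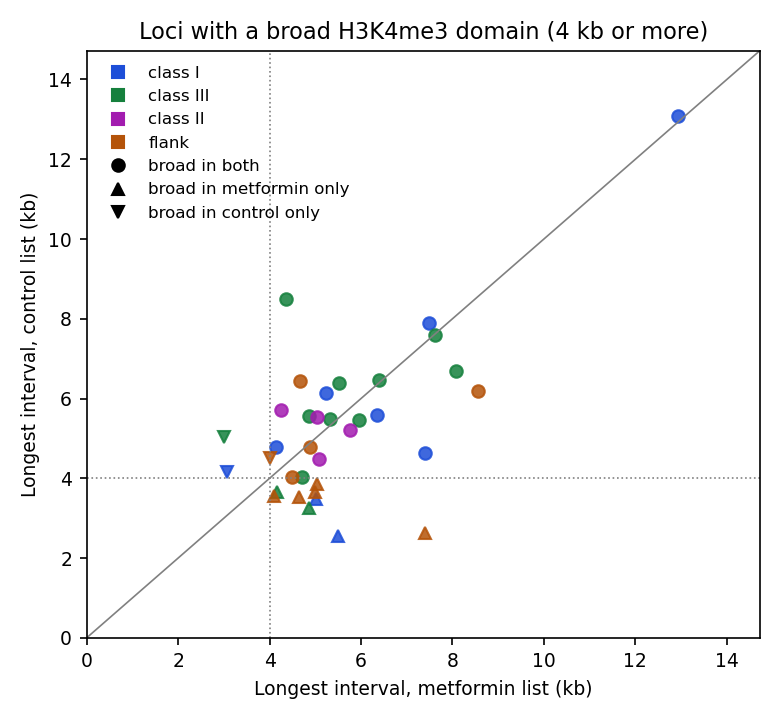
Longest H3K4me3 interval per locus in the metformin list (horizontal axis, kb) and the control list (vertical axis, kb) for the 35 loci with a domain of 4 kb or more. Colours give the class and symbols the list in which the locus was broad, the solid line marks equal widths and dotted lines mark 4 kb. Loci lie on both sides of the line, and the longest, 12.9 kb after metformin and 13.1 kb in control, lies on it.

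Long H3K27me3 intervals of 4 kb or more numbered 48 of 461 after metformin (10.4%, 7.78 to 13.6) and 50 of 464 in control (10.8%, 8.10 to 14.0), beside 3.32% of the whole metformin list and 2.69% of the whole control list. All of them had a partner in the other list, as did 99.6% after metformin and 99.7% in control over the rest of the genome. Class III had none in either list. Class I had 28 after metformin and 25 in control, class II 11 after metformin and 15 in control, and the flank 9 after metformin and 10 in control. The longest was chr6:33857242-33875473 in the flank, 18.2 kb after metformin, with 3 control intervals there, the longest of 9.80 kb. In class I chr6:30340494-30355539 was 15.0 kb after metformin, against 3 control intervals of at most 10.7 kb. The control list had its own long intervals that were divided after metformin. The longest, chr6:31003559-31018163 in class I (14.6 kb), was overlapped by 4 metformin intervals of at most 3969 bp, and chr6:30931300-30942286 (11.0 kb) by 3 of at most 3352 bp. In class II chr6:33074177-33083887 was 9711 bp after metformin with a longest control interval of 6597 bp, and chr6:32764398-32774718 was 10.3 kb in control with a longest metformin interval of 7881 bp. The class I stretch at chr6:30325946-30337679 was nearly as long in either list, 11734 bp after metformin and 11748 bp in control.

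The marks met on the same sequence at few sites. After metformin 19 of 292 H3K4me3 members were overlapped by H3K27me3 (6.51%, 3.96 to 9.97), beside 4.55% of the whole list, and in control 5 of 277 (1.81%, 0.589 to 4.16), beside 2.78%. Seen from H3K27me3, 15 of 461 members after metformin met H3K4me3 (3.25%, beside 2.22% of the whole list) and 6 of 464 in control (1.29%, beside 1.36%). The sequence under both marks was 11368 bp after metformin and 3865 bp in control. It was larger after metformin over the whole lists too, at 1082 kb after metformin and 514 kb in control. With the metformin H3K4me3 list set against the control H3K27me3 list, 13 intervals and 7528 bp of the region were under both, of 738 kb over the whole lists. With the lists exchanged the other way these were 12 intervals and 6248 bp, of 689.6 kb. By class, 12 of the 19 metformin sites lay in class I, 5 in the flank and 2 in class II, and of the 5 control sites 4 lay in class I and 1 in the flank. In class III 0 of 81 metformin and 0 of 83 control intervals carried both, which allows up to 3.70% after metformin and 3.61% in control. The median distance from an H3K4me3 interval to the nearest H3K27me3 interval was 22060 bp after metformin and 25835 bp in control, against 68044 bp after metformin and 82300 bp in control over the rest of the genome.

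All 5 control sites were also touched by both marks after metformin. Among the 19 metformin sites, 6 were touched by both marks in control, 5 by H3K4me3 only, 5 by H3K27me3 only and 3 by none. These splits were not computed over the genome. The whole lists held 2432 H3K4me3 intervals with H3K27me3 after metformin and 1408 in control. The longest overlap was at chr6:29759078-29763007 in class I, where 2239 bp of 3930 bp of H3K4me3 lay under H3K27me3 after metformin, and 1492 bp of a 2394 bp interval in control. At chr6:30448254-30450223 in class I, 1701 bp lay under both after metformin and 811 bp in control, and the H3K4me3 value was 27.1 after metformin and 5.89 in control. At chr6:30434230-30435366 all 1137 bp of the metformin interval lay under H3K27me3 (H3K4me3 value 24.4), while the control list had an H3K4me3 interval of 631 bp at 6.47 and 109 bp of H3K27me3 there. In the flank chr6:33180652-33182497 had 863 bp under both after metformin and 241 bp in control. Median H3K4me3 widths at these sites were 677 bp after metformin and 1310 bp in control, against 671.5 bp after metformin and 716 bp in control over all members. Of the 19 metformin intervals, 9 lay wholly inside H3K27me3, as did 1 of the 5 control intervals. For 4 of the 19 and 0 of the 5 the overlap was under 200 bp, and at chr6:33159243-33159919 it was 2 bp. The sites at chr6:30434230-30435366 and chr6:30448254-30450223 lie in the bin with an H3K4me3 ratio of 1.67, the largest among bins of the region with at least 2 kb covered in 1 list.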

How the data were processed

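Chromatin was cross-linked, cut with micrococcal nuclease and precipitated with an antibody to each mark, per the labels' protocols. Per the submitters' processing notes, reads were handled with Trimmomatic 0.38, Bowtie and MACS2 on hg19 (GRCh37). Neither options, nor the background library, nor the handling of reads from near-identical gene copies is given in the sources used here, and 0 of 275570 intervals lay on alternative haplotype sequences. The deposited value of each interval was read as a −log10 q from its lower limits, 1.31 for H3K4me3 in each list, and 1.00 after metformin and 1.01 in control for H3K27me3, close to the −log10 of 0.05 and 0.1. No counts are in the lists, so depth is unknown. Each deposited list is 1 library.

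Rows of 1 interval were joined and carry the highest value. An interval belongs to the class that holds its midpoint, and covered length was clipped at class limits. Overlap means at least 1 bp. Binomial intervals are exact (Clopper-Pearson) and, like the limits set by a count of 0 (3 counts of the total), cover counting error only. The named intervals are, per class and list, the 3 longest, the 3 of highest value and the 3 of highest value without a partner, every H3K4me3 domain of 4 kb or more, the longest overlaps of both marks, the 3 longest stretches without marks and each bin past 1.5-fold. Not all of them are printed. The sites with both marks beyond the 2 longest, chr6:32427327-32428307 and the bins that differed in their larger mark were chosen after their values were seen. The region, classes and rules were chosen with earlier results of these data known, and the tiled windows, the runs of bins and the joined loci were added after seeing the data. Planned gene lists were not used, since no hg19 annotation was used here. Overlap code recovered 100% of kept intervals with 0% false overlaps on simulated lists of 50585 H3K4me3 and 85579 H3K27me3 intervals, and equalled bedtools 2.31.1 in 4 pairs of lists. Python 3.11.15, pandas 2.3.3, numpy 2.4.6, scipy 1.17.1 and matplotlib 3.10.9 were used.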

Additional observations from a re-analysis of the deposited data

How the results depend on the processing

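No paired analysis was possible because no group held more than 1 library, and none could be left out. Values are given for metformin, then control. The share of H3K4me3 members with a partner (70.9% and 81.2%) was 87.6% and 93.8% among values of at least 5, 79.2% and 88.9% once intervals within 1 kb were merged, and 61.3% and 75.1% when a partner had to overlap 50% of the interval. Under that last rule the share of H3K27me3 members (67.9% and 74.8%) was 44.5% and 58.8%. The H3K27me3 ratio of covered length (1.19) became 1.23 at values of 1.5 or more. With a 2 kb limit there were 76 and 72 broad H3K4me3 domains in place of 33 and 26, and after merging within 1 kb there were 52 and 51. H3K4me3 intervals with H3K27me3 (19 and 5) numbered 10 and 3 at an H3K4me3 value of 5 or more, and 15 and 5 with an overlap of at least 200 bp. H3K4me3 bins larger after metformin (2 of 33) numbered 5 of 51 with bins of 50 kb and 0 of 19 with bins of 200 kb. At 2-fold, and with the fold divided by the genome-wide ratio, they numbered 0 of 33. H3K27me3 bins larger after metformin (10 of 33) numbered 18 of 54 with bins of 50 kb and 2 of 19 with bins of 200 kb. They numbered 6 of 33 at 2-fold and 7 of 33 with the fold divided by the genome-wide ratio. Smaller H3K27me3 bins (1 of 33) numbered 4 of 54 and 0 of 19 with those bin sizes. Shares over all bins and over the whole lists are given above for the main setting only, so these settings do not place the region beside the genome. Counts per class moved by at most 1 when an interval was counted in every class it overlapped. The cause of these changes was not tested. Depth, unknown here, limits the comparisons of metformin with control.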
